A study of Sus scrofa domesticus with 8 samples.

Results

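AMH, INHBA, FST, AMHR2 and TGFBR3 encode a hormone, an activin subunit, an activin-binding protein and 2 receptors of the transforming growth factor beta superfamily, and their RNA was followed in porcine ovarian granulosa cells over 144 h of culture. The 5 genes were found by their symbols in the platform annotation, which gives each of them 1 feature on the array, that is, 1 set of probes along a transcript. They are 5 of 10707 named genes on an array of 27558 features. Granulosa cells, the somatic cells that surround the oocyte in a follicle, came after slaughter from 43 gilts, crossbred Landrace females of 170 days and 98 kg at the median. The culture medium was DMEM with 2% serum from fetal calves. The labels set the 4 groups apart by time alone, with 2 Affymetrix whole-transcript arrays for each of 0 h, 48 h, 96 h and 144 h. At 0 h no time in culture had passed, so differences from 0 h include the move into culture itself. The labels name no hormone among the additions to the medium. Levels below are log2 intensities as the authors deposited them, and a difference is the later time's mean minus the earlier one's, with its standard error (SE) from a linear model over all 8 arrays. A difference was called when its p-value, adjusted over all features, was below 0.05.

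Granulosa cells of growing follicles secrete anti-Müllerian hormone, the product of AMH, which restrains follicle recruitment and the response to follicle-stimulating hormone. It binds the type 2 receptor encoded by AMHR2 and signals through SMAD proteins shared with bone morphogenetic proteins (BMPs). INHBA encodes the beta A subunit, which forms activin A as a pair and inhibin A together with the alpha subunit. Activin signals through type 2 and type 1 receptors to SMAD2 and SMAD3, follistatin, the product of FST, binds activin and keeps it from its receptors, and betaglycan, the product of TGFBR3, presents transforming growth factor beta and is also a co-receptor for inhibin.

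The labelled cell type was checked against marker genes. Of 16 granulosa markers, 10 had a named feature, and no one of these lay below the lower quartile of both arrays at any time. Their mean level was 8.44 on both arrays at 0 h, 7.17 and 7.18 at 48 h, 6.89 and 6.91 at 96 h, and 6.54 and 6.65 at 144 h. FSHR, CYP19A1, FOXL2, INHA, INHBB and GATA4 were not analysed here, since no feature carried their names. CYP17A1, the androgen-making enzyme of theca cells, had mean levels between 2.64 and 3.04 at the 4 times, below the lower quartile of the arrays. Of 7 measured theca and stroma markers, it was the only 1 below the lower quartile on both arrays at each time. At 0 h the others had mean levels from 4.65 for PDGFRB to 7.73 for RGS5. At 144 h DCN was at 11.24, COL1A1 at 12.07, RGS5 at 7.09, PDGFRB at 6.97, NR2F2 at 6.21 and INSL3 at 4.16. Of 10 oocyte markers, 6 were measured, with mean levels of 5.17 and 5.45 at 0 h and between 3.49 and 3.67 on the later arrays. Whether paired arrays hold RNA of different animals, pools or cultures is not stated, and the p-values therefore rest on a spread that may be technical. Time and any array batch that went with it cannot be told apart.

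Every one of the 5 genes was lower at 96 h and at 144 h than at 0 h, and they differed in when and how far they fell. AMH and TGFBR3 were at or near their lowest level from 48 h on. FST was lowest at 96 h and higher again at 144 h, INHBA was lowest at 144 h, and AMHR2 fell between 48 h and 96 h. In the moderated F test for any difference between times, all 5 genes were called, with adjusted p between 3.31e-07 for TGFBR3 and 0.00015 for AMHR2, where 47.5% of all features were called. In these bulk samples, fewer cells that express a gene and less RNA of it per cell cannot be told apart.

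**Figure D1:**
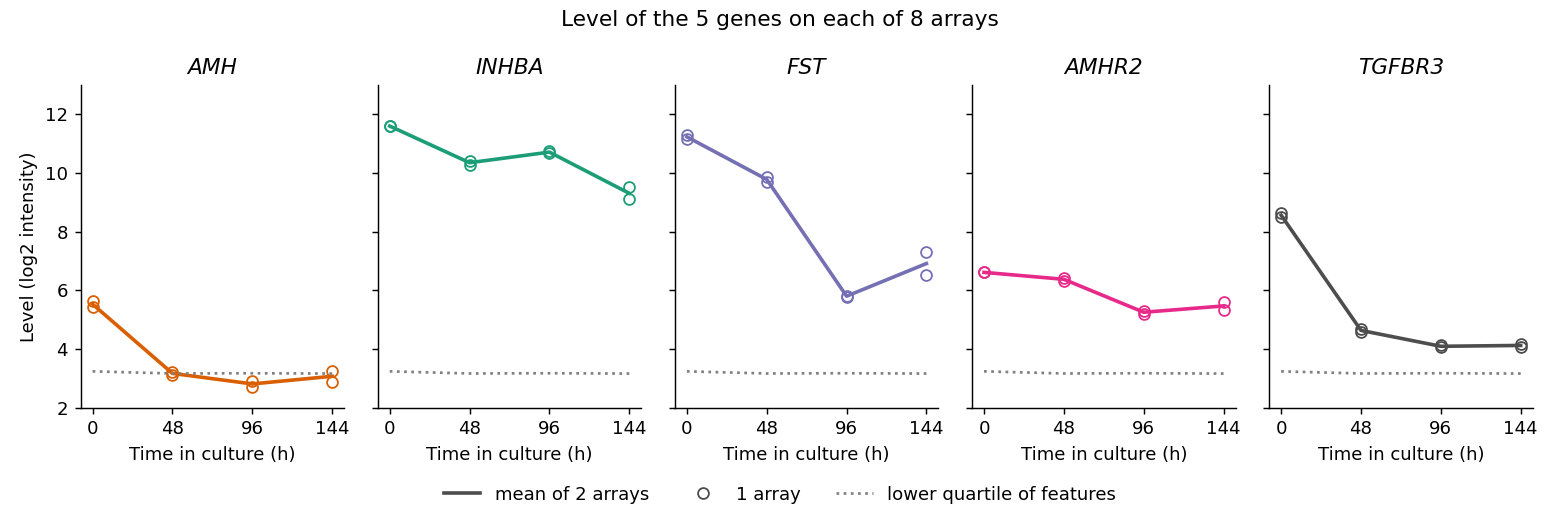
Log2 intensity (vertical axis) of AMH, INHBA, FST, AMHR2 and TGFBR3 against hours in culture, with a circle for each array, a line through the mean of the 2 arrays of a time and a dotted line at the mean lower quartile of all features. AMH reaches the dotted line from 48 h on, FST is lowest at 96 h (mean 5.80), and the 2 arrays at 144 h lie furthest apart for FST (6.51 and 7.32).

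The 2 arrays of AMH, the hormone gene, read 5.43 and 5.63 at 0 h, 3.12 and 3.22 at 48 h, 2.92 and 2.71 at 96 h, and 2.89 and 3.27 at 144 h. Both 0 h arrays lay more than 2 log2 units above every later array, and the later arrays lay within 0.47 below and 0.06 above the lower quartile of their own array. No detection call was used here, so the later levels are not shown to lie above background and the differences are given without a fold. Against 0 h, AMH fell by 2.36 at 48 h (SE 0.16, adjusted p = 2.16e-05), fell by 2.72 at 96 h (adjusted p = 5.15e-06) and fell by 2.46 at 144 h (adjusted p = 1.16e-05). Between later times no difference was called. The difference was -0.36 at 96 h against 48 h (95% confidence interval -0.72 to 0.01, adjusted p = 0.131), -0.10 at 144 h against 48 h (-0.46 to 0.27) and 0.26 at 144 h against 96 h (-0.10 to 0.63). At levels this low the array may not register a further fall.

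INHBA, the activin beta A subunit gene, was among the brightest features throughout, with 11.61 and 11.59 at 0 h, 10.29 and 10.42 at 48 h, 10.67 and 10.75 at 96 h, and 9.10 and 9.52 at 144 h. No array of one time overlapped with an array of another, and the order of the levels was 0 h, 96 h, 48 h and 144 h, from high to low. It fell by 1.25 at 48 h against 0 h (SE 0.15, adjusted p = 0.000448), which is 2.38-fold lower, and fell by 2.29 at 144 h against 0 h (SE 0.15, adjusted p = 1.23e-05), which is 4.90-fold lower. At 96 h the difference from 0 h was -0.89 (SE 0.15, adjusted p = 0.00166). INHBA was higher at 96 h than at 48 h by 0.36 without passing the threshold (95% confidence interval 0.02 to 0.71, adjusted p = 0.109). That difference passed without 144 h replicate 1 or 144 h replicate 2 (adjusted p = 0.0238 in each case), although neither array enters the difference itself, and when only the 4 arrays of 48 h and 96 h were fitted (adjusted p = 0.0330). INHBA then fell by 1.40 at 144 h against 96 h (SE 0.15, adjusted p = 0.000634), number 63 among the falls of the 10707 named genes in that comparison. At 144 h against 48 h it fell by 1.04 (adjusted p = 0.00442), and this call was lost when only the 4 arrays of those times were fitted (adjusted p = 0.0507).

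FST, the follistatin gene, had the widest range of the 5 genes. Its levels were 11.16 and 11.31 at 0 h, 9.86 and 9.70 at 48 h, 5.83 and 5.78 at 96 h, and 6.51 and 7.32 at 144 h. No time overlapped with another, the fall to 96 h had the 2 arrays of each time within 0.16 of each other, and the arrays at 144 h stood 0.81 apart. FST fell by 1.45 at 48 h against 0 h (SE 0.23, adjusted p = 0.0022), 2.73-fold lower. The larger step came after that. At 96 h against 48 h FST fell by 3.98 (SE 0.23, adjusted p = 2.85e-05), 15.8-fold lower, and this was number 6 among the falls of all named genes in that comparison. Against 0 h, FST was 43.0-fold lower at 96 h (difference -5.43, SE 0.23, adjusted p = 1.17e-06) and 19.9-fold lower at 144 h (difference -4.32, SE 0.23, adjusted p = 4.79e-06). At 144 h against 96 h FST was the only one of the 5 genes called higher, with a difference of 1.11 (SE 0.23, adjusted p = 0.0119), or 2.16-fold. Leaving out 96 h replicate 1 or 96 h replicate 2 ended this call, with adjusted p of 0.0716 and 0.0782 in that order, and so did the fit in which only the 4 arrays of those times were used (adjusted p = 0.0511). At 144 h FST was still 7.29-fold lower than at 48 h (difference -2.87, SE 0.23, adjusted p = 0.000393).

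The genes of activin A and of its binding protein changed by unequal amounts within the same arrays. The log2 ratio of INHBA to FST, set to 0 at its 0 h mean, was 0.06 and 0.35 at 48 h, 4.48 and 4.60 at 96 h, and 2.22 and 1.83 at 144 h. The 0 h arrays were 0.08 above and 0.08 below their mean. At 48 h both genes were lower by about the same amount, at 96 h FST was far lower with INHBA 0.36 above its 48 h level, and at 144 h the ratio had come part of the way back as INHBA was lower and FST higher than at 96 h. The ratio says nothing about which of the 2 genes is more abundant, because features bind their targets with different strength, and it was not tested. The ratio of AMH to AMHR2 is not given, since AMH lay near the lower quartile from 48 h on.

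**Figure D2:**
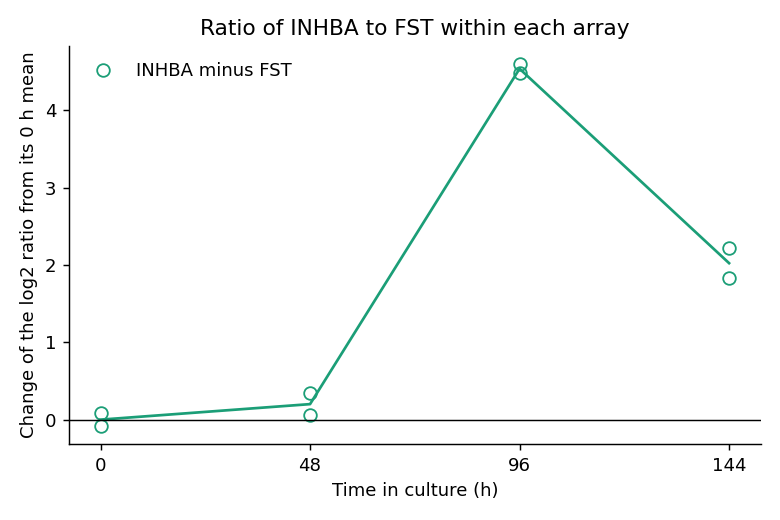
Change of the log2 ratio of INHBA to FST from its 0 h mean, against hours in culture, with a circle for each array and a line through the mean of the 2 arrays. The ratio is highest at 96 h (mean change 4.54) and lower at 144 h (2.02).

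AMHR2, the gene of the AMH type 2 receptor, stayed near its starting level for longer than its ligand gene. It had levels of 6.62 and 6.61 at 0 h, 6.43 and 6.33 at 48 h, 5.20 and 5.31 at 96 h, and 5.32 and 5.62 at 144 h. The 0 h and 48 h arrays lay close together and well above the 96 h and 144 h arrays. At 48 h against 0 h the difference was -0.24 and was not called (95% confidence interval -0.54 to 0.07, adjusted p = 0.227), so a fall of the size that AMH showed lies outside the interval. AMHR2 fell by 1.12 at 96 h against 48 h (SE 0.13, adjusted p = 0.000539), 2.18-fold lower. Against 0 h it was 2.56-fold lower at 96 h (difference -1.36, adjusted p = 7.50e-05) and 2.21-fold lower at 144 h (difference -1.14, adjusted p = 0.000281). The 2 last times did not differ beyond the threshold (difference 0.21, 95% confidence interval -0.09 to 0.52). At 144 h against 48 h the fall was 0.91 on the log2 scale (difference -0.91, adjusted p = 0.00457), and it was lost when only those 4 arrays were fitted (adjusted p = 0.0524).

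TGFBR3, the betaglycan gene, had the largest fall of the 5 genes in the first 48 h. The arrays gave 8.50 and 8.62 at 0 h, 4.68 and 4.59 at 48 h, 4.06 and 4.13 at 96 h, and 4.17 and 4.08 at 144 h. The 0 h arrays stood apart from the rest, the 48 h arrays lay a little above the last 2 times, and the 96 h and 144 h arrays overlapped. At 48 h against 0 h TGFBR3 fell by 3.92 (SE 0.11, adjusted p = 4.56e-07), number 15 among the falls of all named genes. Against 0 h the difference was -4.46 at 96 h (adjusted p = 1.51e-07) and -4.44 at 144 h (adjusted p = 1.50e-07). The later levels were 0.88 to 1.53 above the lower quartile of their arrays, and 42.3% to 51.9% of features on the same array lay at or below them. As for AMH, no detection call was used and no fold is given. A smaller fall followed at 96 h against 48 h (difference -0.54, SE 0.11, adjusted p = 0.00768), which was lost without 48 h replicate 1 (adjusted p = 0.0522) and without 96 h replicate 1 (adjusted p = 0.0747). At 144 h against 48 h the difference was -0.51 (adjusted p = 0.0265). It was lost when only those 4 arrays were fitted (0.153), without 48 h replicate 1 (0.150), 48 h replicate 2 (0.0850), either 96 h array (0.0726 each) or 144 h replicate 2 (0.0522), all as adjusted p. Between 96 h and 144 h the difference was 0.03 (95% confidence interval -0.23 to 0.28).

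The timing of the falls was compared by a contrast of the change between 48 h and 144 h with the change in the first 48 h. The later window is the longer of the 2, so rates are not compared. Its change is a net of opposite moves for FST, -3.98 to 96 h and 1.11 after it. AMH and TGFBR3 were called, where 15.9% of all features were. Both were already low at 48 h, with little room above the lower quartile for a second fall as large as the first, so no difference in timing is read from these calls. For TGFBR3 the later change was -0.51 and the early change -3.92, and they differed by 3.41 (SE 0.19, adjusted p = 4.96e-05). For AMH, whose later levels lay near the lower quartile, they were -0.10 and -2.36 and differed by 2.26 (SE 0.27, adjusted p = 0.00129). FST pointed the other way, with a later change of -2.87 and an early one of -1.45, and missed the threshold (difference -1.42, SE 0.40, adjusted p = 0.0503). It passed without 144 h replicate 1 (adjusted p = 0.0111) and without 144 h replicate 2 (adjusted p = 0.00108). It also passed after median centring (0.0373), with dim features left out (0.0375), with a trended and robust variance model (0.0396) and with 1 feature per named gene (0.0269), all as adjusted p. AMHR2 also pointed that way (difference -0.67, 95% confidence interval -1.20 to -0.15, adjusted p = 0.0874) and passed without 144 h replicate 2 (adjusted p = 0.0197). INHBA had nearly equal changes of -1.04 and -1.25 (difference 0.21, 95% confidence interval -0.39 to 0.80). The later change of INHBA is the net of 0.36 to 96 h and -1.40 after it, so it was not a steady fall.

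Counted by comparison, 4 of the 5 genes were called lower at 48 h against 0 h, where 14.8% of all features were. All 5 were called lower at 96 h against 0 h (22.3% of all features) and at 144 h against 0 h (16.7%). At 96 h against 48 h, 3 were called lower (16.0% of all features), and at 144 h against 48 h, 4 were called lower (4.32%). At 144 h against 96 h, FST was called higher (12.1% of all features) and INHBA lower (10.1%). The comparisons share arrays, so the counts are not independent of each other.

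**Figure D3:**
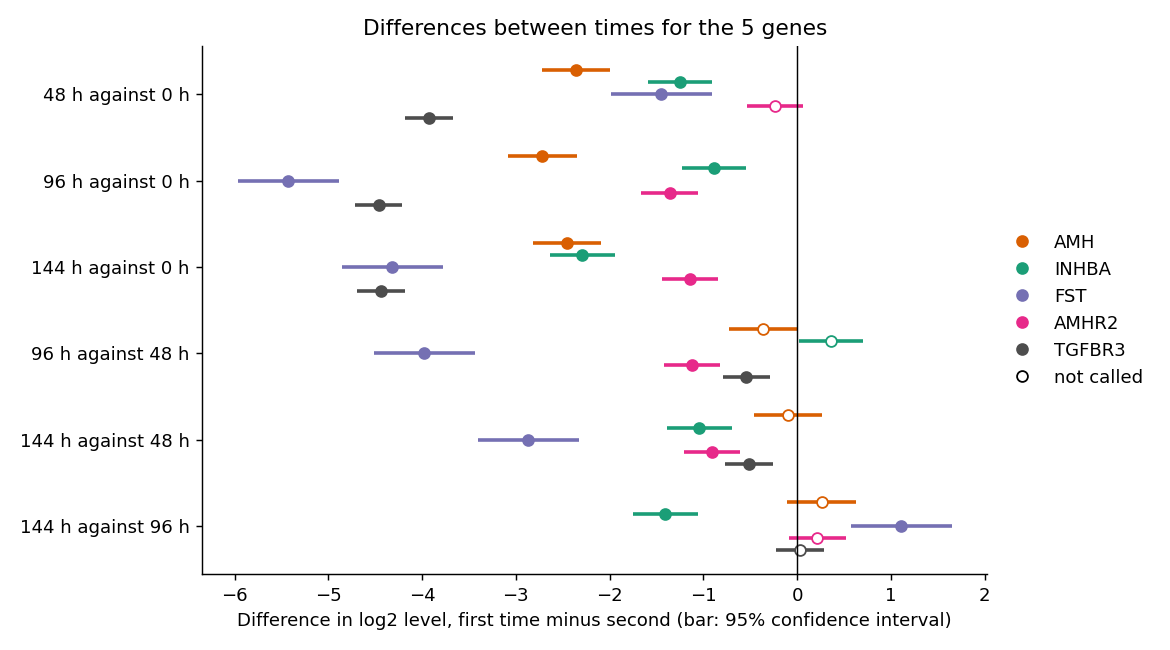
Difference in log2 level between 2 times for the 5 genes, the first-named time minus the second, with the 95% confidence interval as a bar. Filled circles were called at an adjusted p below 0.05, and at 144 h against 96 h FST (1.11) lies right of 0 and INHBA (-1.40) left of it.

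The other genes of the pathway were taken from a list of 74 genes in 9 role groups, of which 49 had a named feature. A feature counted as named, and its gene as measured, when its annotation held 1 symbol entry. Features whose annotation repeats 1 symbol, found for ACVR1C, SMAD5 and SKIL, were left out. Of these 49, 16 were called higher and 9 lower at 48 h against 0 h, with a median difference of -0.04, as over all features. At 96 h against 0 h the counts were 10 and 12, and at 144 h against 0 h they were 12 and 15. The share called was 51.0% at 48 h, 44.9% at 96 h and 55.1% at 144 h, against 30.0%, 41.3% and 32.1% of all features. All features include 15211 without a symbol and many dim ones, and the list was chosen with earlier results of these data known. With dim features left out, or with 1 feature per named gene, the pathway share at 96 h was below that of the features tested. At 48 h and 144 h it stayed above. An excess was not tested, and shares of all features given below have the same limit. The genes named below are those with the largest called differences at 144 h against 0 h in each group. INHBE, ACVR2A, ID4 and BMPER are exceptions, named after their values were seen.

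**Figure D4:**
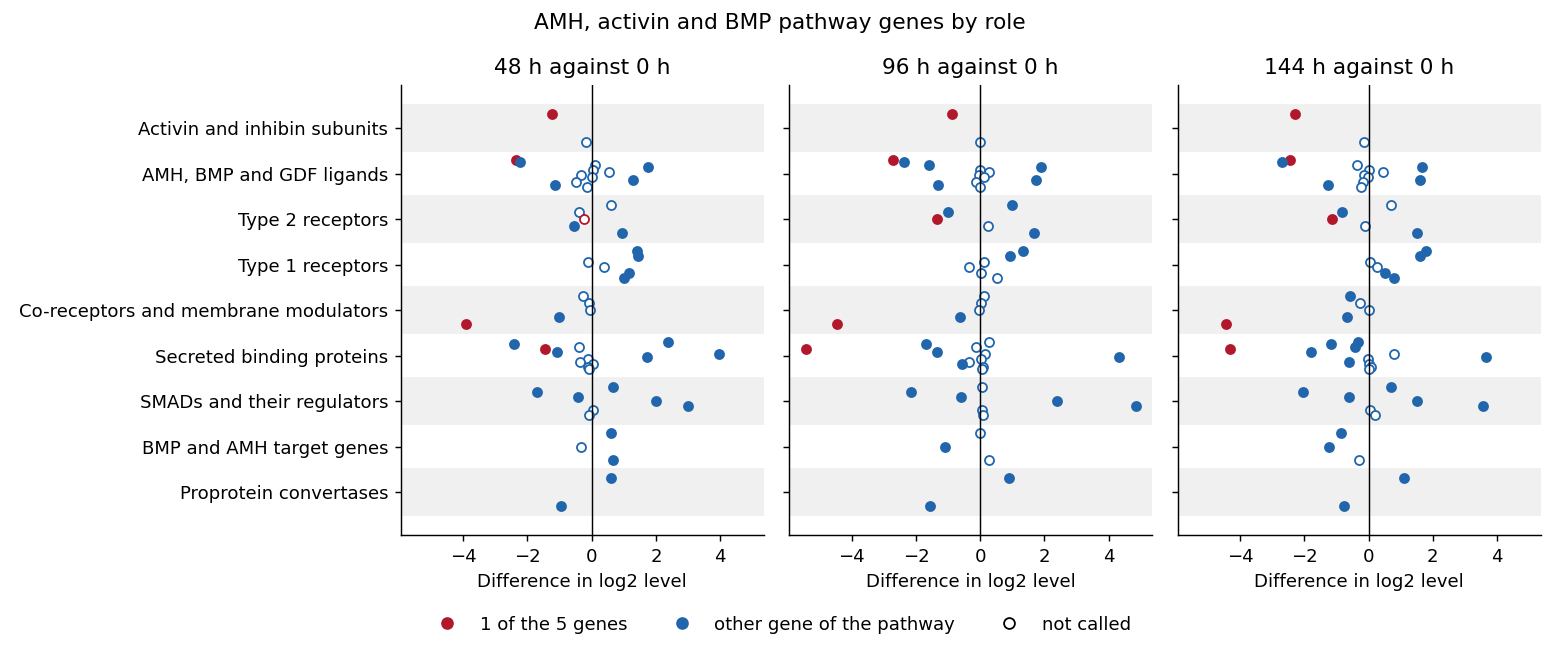
Difference in log2 level against 0 h at 48 h, 96 h and 144 h (panels) for the 5 genes (red) and 49 other genes of the pathway (blue), in rows by role, filled where called. The type 1 receptor genes called at 144 h against 0 h all lie right of 0, and the 5 genes all lie left of it.

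Among other ligand genes, 11 of 13 were measured, and 2 were called higher and 2 lower at both 48 h and 144 h against 0 h. BMP4, a BMP ligand of the ovary, was at 7.76 at 144 h and 6.09 at 0 h (difference 1.67, SE 0.33, adjusted p = 0.0055). Its 144 h arrays stood at 7.16 and 8.35, and without 144 h replicate 2 the difference was 1.07. GDF11, a ligand of activin type receptors, was at 6.46 at 144 h and 4.87 at 0 h (difference at 144 h 1.59, SE 0.19, adjusted p = 0.000315). The genes called lower were the oocyte ligand genes BMP15, with a mean level of 2.79 at 144 h and 5.48 at 0 h, below the lower quartile at 144 h, and GDF9, with 5.64 at 144 h and 6.91 at 0 h. Both were already lower at 48 h, with differences of -2.22 for BMP15 and -1.13 for GDF9, and they move with the other oocyte markers. INHBE, which encodes another activin subunit, was the only other subunit gene measured, and its mean level stayed between 3.53 and 3.72.

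Receptor genes other than AMHR2 and TGFBR3 moved in both directions. Of all features, 30.0% were called in either direction at 48 h, 41.3% at 96 h and 32.1% at 144 h, each against 0 h. Of 6 measured type 1 receptor genes, 4 were called higher at 48 h against 0 h and none lower, with a median difference of 1.08. At 96 h against 0 h, 2 were called higher and none lower, with a median of 0.31. BMPR1B was not called there (0.02), but its other feature was higher by 1.25 (adjusted p = 0.000196), so that count depends on the feature used. At 144 h against 0 h, 4 were called higher and none lower, with a median of 0.65. ACVR1, which encodes a type 1 receptor used by BMPs and AMH, was at 8.69 at 144 h and 6.92 at 0 h (difference 1.77, SE 0.12, adjusted p = 1.25e-05), and ACVR1B, the activin type 1 receptor gene, was at 6.66 at 144 h and 5.07 at 0 h (difference 1.59, SE 0.20, adjusted p = 0.00047). TGFBR1 differed by 0.79 and BMPR1B by 0.50, or 0.53 by its other feature. The call of TGFBR1 was lost without 0 h replicate 1 (adjusted p = 0.106), without 144 h replicate 1 (difference 0.50, adjusted p = 0.0527) and with only those 4 arrays (adjusted p = 0.0556). That of BMPR1B was lost after cyclic loess (difference 0.29, adjusted p = 0.0994) and without 0 h replicate 2 (adjusted p = 0.0650). Of 4 other type 2 receptor genes, TGFBR2 was called higher (difference 1.50, SE 0.13, adjusted p = 6.03e-05) and the activin receptor gene ACVR2B lower (difference -0.82, SE 0.18, adjusted p = 0.00982) at 144 h against 0 h. ACVR2B lost its call without 0 h replicate 1 (adjusted p = 0.0539) or 0 h replicate 2 (adjusted p = 0.0507). ACVR2A differed by 0.69 (adjusted p = 0.0888). Of 4 other co-receptors and membrane modulators, RGMA, a BMP co-receptor gene (difference -0.67), and BAMBI, which encodes a decoy receptor (difference -0.57), were called lower at 144 h against 0 h and none higher. BAMBI lost its call under 7 of 19 alternative fits, among them without 144 h replicate 2 (difference -0.36, adjusted p = 0.0963).

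Secreted binding protein genes other than FST moved in both directions. Of 17 listed, 11 were measured, and 1 was called higher and 5 lower at 144 h against 0 h. Of those called lower, the BMP-binding protein gene BMPER (difference -0.35, adjusted p = 0.0327) lost its call under 13 of 19 alternative fits. GREM1, which encodes the BMP antagonist gremlin, was the gene called higher, with 4.49 and 4.35 at 0 h, 5.98 and 6.28 at 48 h, 8.78 and 8.69 at 96 h, and 9.06 and 7.09 at 144 h. It differed by 4.32 at 96 h (SE 0.51, adjusted p = 0.000237) and by 3.65 at 144 h (SE 0.51, adjusted p = 0.000857) against 0 h, and its 144 h arrays stood far apart. FSTL4, a follistatin-like gene, was at 3.92 at 144 h and 5.71 at 0 h (difference -1.79, SE 0.11, adjusted p = 9.61e-06). CHRDL1, which encodes a chordin-like BMP antagonist, fell by 2.43 at 48 h against 0 h and stood 1.25 higher at 144 h than at 48 h (adjusted p = 0.00108), with 7.86 at 144 h against 9.04 at 0 h. SOSTDC1 differed by -0.60 at 144 h against 0 h at levels near the lower quartile, and lost its call under 9 of 18 alternative fits, among them without 144 h replicate 1 (difference -0.31).

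Among SMAD genes and their regulators, 7 of 13 listed had a named feature, and 3 were called higher and 2 lower at 144 h against 0 h. SMAD5 and SKIL had a feature with a repeated symbol, which was not used. SMAD7, an inhibitory SMAD, had a mean level of 2.74 at 0 h, then 5.73 at 48 h, then 7.58 at 96 h, and 6.32 at 144 h at the end. Its 0 h level lay below the lower quartile, and its difference of 4.84 at 96 h against 0 h (SE 0.13, adjusted p = 2.31e-07) is therefore given without a fold. SMAD7 then fell by 1.27 at 144 h against 96 h (SE 0.13, adjusted p = 0.000642). SMAD6, an inhibitory SMAD mainly of the BMP branch, was 1.50 higher at 144 h than at 0 h (SE 0.35, adjusted p = 0.0116). Its 144 h arrays stood at 6.95 and 8.28, and the difference was 0.84 without 144 h replicate 2. With 0 h replicate 1 or 0 h replicate 2 left out, SMAD6 missed the threshold (adjusted p = 0.0614 and 0.0586 in that order). SMAD2, a signal carrier of activin, was at 9.07 at 144 h and 11.11 at 0 h (difference -2.03, SE 0.11, adjusted p = 4.17e-06), and SMAD1, a signal carrier of BMPs and AMH, was 0.71 higher (adjusted p = 0.00779), a call lost without 0 h replicate 1 (adjusted p = 0.0512).

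The ID genes, targets of BMP and AMH signalling, were measured for 3 of 4 members. At 144 h against 0 h, ID1 (-0.85) and ID2 (-1.24) were called lower, where 16.7% of all features were. ID4 was not called (-0.31, adjusted p = 0.152). At 96 h against 0 h only ID2 was called lower (-1.10), with ID1 at 0.01 and ID4 at 0.29, where 22.3% of all features were called lower. All 3 were called lower at 144 h against 48 h, where 4.32% of all features were called lower. ID1 differed by -1.46 (SE 0.17, adjusted p = 0.00179), ID4 by -0.98 (SE 0.15, adjusted p = 0.00543) and ID2 by -0.92 (SE 0.22, adjusted p = 0.0396). The call of ID2 was lost under 10 of 19 alternative fits, and its difference was -0.56 without 144 h replicate 1 (144 h arrays 9.21 and 9.93). That of ID4 was lost when only those 4 arrays were fitted (adjusted p = 0.0566). In the first 48 h, ID1 and ID4 had been called higher, by 0.62 and 0.67, calls lost under 7 of 19 alternative fits for ID1 and 2 of 19 for ID4. Of the proprotein convertases, which cut AMH and activin precursors into their active form, FURIN was called higher at 144 h against 0 h (difference 1.10, SE 0.14, adjusted p = 0.000512) and PCSK6 lower (difference -0.77, SE 0.11, adjusted p = 0.00107), with its lowest mean level of 4.55 at 96 h.

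Genes with the most similar course over the 8 arrays were found among 9658 named genes by the root mean square difference after each gene's own mean was subtracted, in log2 units, where a smaller value is more alike. Nearest to AMH were NCAPD2, a condensin subunit gene (0.14), IGDCC4 (0.14) and SCGB1D1 (0.16), and the median over all genes was 1.11. Nearest to INHBA were the kinesin gene KIF21A (0.19), KIT, which encodes the receptor of KIT ligand (0.21), and PRR15 (0.21). Nearest to FST were PDK4, which encodes an inhibitor of pyruvate dehydrogenase (0.40), RGS2, which encodes a regulator of G protein signalling (0.42), and CDO1, the cysteine dioxygenase gene (0.62). PDK4 had a mean level of 8.20 at 0 h and 6.93 at 48 h, then 3.33 at 96 h and 4.20 at 144 h, a course with the same low point at 96 h. Nearest to AMHR2 were MXI1 (0.09), ACP5 (0.10) and APMAP (0.11), and nearest to TGFBR3 were the phosphodiesterase gene PDE7B (0.20), the acyl-CoA synthetase gene ACSL6 (0.21) and MAL2 (0.22). No one of the 5 genes was among the 3 nearest of another. Among the 5, INHBA and AMHR2 had the smallest difference (0.68) and FST and INHBA the largest (1.83). This value depends on how far each gene moved. For AMHR2 the median over all genes was 0.62, so INHBA, number 6180 nearest to it, was less like it than most genes were. By rank, the closest were AMH, number 81 nearest to TGFBR3, and TGFBR3, number 82 nearest to FST.

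Marker genes of granulosa and other cells moved over the same times. Of the 10 measured granulosa markers, 5 were called lower and 2 higher at 48 h, 6 and 2 at 96 h, and 7 and 1 at 144 h, each against 0 h. In those comparisons 14.8%, 22.3% and 16.7% of all features were called lower. HSD17B1, the estradiol-making enzyme gene, had a mean level of 10.84 at 0 h and 5.68 at 48 h, then 4.01 at 96 h and 4.21 at 144 h. NR5A1, a steroidogenic transcription factor gene, had 8.58, 7.93, 6.89 and 7.83 at the same times. WT1 and KITLG went the other way, with 6.17, 6.91, 7.19 and 7.01 for WT1 and 3.65, 6.15, 6.68 and 4.66 for KITLG. Both were called higher at 48 h and 96 h, and WT1 also at 144 h. NR5A1, WT1 and KITLG each had 2 features, and the one with the higher mean is given. Of 7 measured theca and stroma markers, 5 were called higher and 1 lower at 48 h against 0 h, and their mean level was 7.09 and 7.11 at 48 h against 5.45 and 5.60 at 0 h. At 96 h against 0 h the counts were 4 higher and 1 lower, and at 144 h they were 3 higher and 2 lower. The 2 lower at 144 h were INSL3 (difference -1.60) and RGS5 (difference -0.64). All 6 measured oocyte markers were called lower at 48 h against 0 h. Of 8 leukocyte markers, 2 were called higher and 4 lower at both 96 h and 144 h. Of 6 endothelial markers, 1 was called higher and 1 lower at each later time, and of 2 red blood cell markers, both below the lower quartile throughout, 1 was called lower. The part of these shifts in the falls of the 5 genes was not tested.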

How the data were processed

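Total RNA from 8 granulosa cell samples was labelled with biotin and hybridised to Affymetrix whole-transcript arrays, per the labels' protocols. The deposited table holds log2 intensities that the authors computed by RMA (robust multi-array averaging) according to the submitters' processing notes, whose software is not given in the sources used here. RMA brings the arrays to a common scale, which hides any shift of most transcripts together. The values were used without further normalization or filter. Groups and replicate numbers came from the sample titles. Gene names came from the platform annotation at GEO, an old one: 11735 features had 1 symbol, 612 several symbol entries and 15211 none. Features with several entries were left unnamed, also where the entries repeat 1 symbol. For a gene with several features the one with the highest mean was used. The RefSeq gene table lists the identifier that the annotation gives for INHBA under the type 'other', in place of protein-coding. The identity of the INHBA feature therefore rests on the annotation.

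The model had 1 mean per time over the 8 arrays (limma 3.58.1, R 4.3.3; 4 residual degrees of freedom, prior 3.98), with two-sided moderated tests and Benjamini-Hochberg adjustment over 27558 features. Over all features, paired arrays differed with an SD of 0.162 at 96 h and 0.382 at 144 h, and 2 arrays per time limit the precision. The steps were tested on simulated data. The 5 genes, gene lists and markers were chosen with earlier results of these data known. Genes were named by a rule: the 5 genes, up to 4 called genes per role group with the largest difference at 144 h against 0 h, and the 3 genes nearest in course to each of the 5. Alternatives were 3 normalizations, a filter on dim features (above the 40th percentile on at least 2 arrays), other variance models, other feature rules, stricter thresholds, a replicate block, and leaving out arrays.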

Additional observations from a re-analysis of the deposited data

How the results depend on the processing

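The number of genes called among the 5 moved by over 1.5 times in few cases. It was 1 in place of 4 at 144 h against 48 h, and 1 in place of 2 at 144 h against 96 h, when only the arrays compared were fitted. At an adjusted p below 0.01 it was 1 at 144 h against 96 h, and with a difference of at least 1 it was 2 at 144 h against 48 h. Leaving out 1 array gave 2 to 4 genes (3 in the report) at 96 h against 48 h, 3 to 4 (4) at 144 h against 48 h, 1 to 2 (2) at 144 h against 96 h, and 2 to 4 (2) for the contrast of the later with the early change. Against 0 h the counts were the same under every array left out. Of the other 49 pathway genes, 11 were called at 144 h against 48 h. That was 4 when only the arrays compared were fitted, 7 without both 96 h arrays, 7 at the stricter p and 4 with a difference of at least 1. With a difference of at least 1, 16 in place of 25 were called at 48 h and 15 in place of 27 at 144 h, both against 0 h, 6 in place of 18 at 96 h against 48 h, and 2 in place of 15 at 144 h against 96 h, which was 6 at the stricter p. Without 1 array, 11 to 23 were called at 96 h against 48 h, 6 to 19 at 144 h against 48 h and 4 to 17 at 144 h against 96 h.

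Of 720 values of the 5 genes under an alternative, 685 kept their direction and their side of the threshold, 20 lost a call, 10 gained one and 5 changed sign, all 5 for uncalled differences. TGFBR3 at 144 h against 96 h was -0.0053 after median centring and ran from -0.0147 to 0.073 with 1 array left out. AMH at 144 h against 48 h ran from -0.29 to 0.092, and INHBA's contrast of the later with the early change from -0.0017 to 0.41, with 1 array left out. The cause was not tested. Over all features, the counts called moved by over 1.5 times under some settings. They ran from 3038 to 10258 at 48 h against 0 h (8260 in the fit reported), from 5147 to 13632 (11375) at 96 h and from 3676 to 10186 (8845) at 144 h against 0 h, from 2669 to 10491 (8089) at 96 h against 48 h, from 825 to 3879 (2381) at 144 h against 48 h and from 1710 to 7320 (6115) at 144 h against 96 h. For the F test they ran from 7809 to 15332 (13103) and for the contrast of changes from 1850 to 6983 (4382). Each of the 5 genes has 1 feature, so the other feature rules left their differences as they were, and the fold threshold could not be applied to the F test.

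The replicate numbers in the titles are not stated to pair arrays, and the deviations of same-numbered arrays from their time's mean correlated over features between -0.04 and 0.06, apart from 48 h with 144 h (0.19). With the replicate number as a block, 8233 features were called at 48 h against 0 h (8260 without it), and the block changed no call of the 5 genes.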

Other observations

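Other secreted modulators of the pathway, named after their values were seen, were high at 48 h only. FSTL5, a follistatin-like gene, had a mean level of 3.26 at 0 h and array levels of 7.11 and 7.33 at 48 h, 3.32 and 3.53 at 96 h, and 3.26 and 4.81 at 144 h. It differed by 3.96 at 48 h against 0 h (SE 0.43, adjusted p = 0.000256) and by -3.79 at 96 h against 48 h (SE 0.43, adjusted p = 0.000455), and its 0 h and 96 h levels lay near the lower quartile. BMPER, which encodes a BMP-binding protein, had 4.66 and 4.64 at 0 h, 7.01 and 7.02 at 48 h, 4.95 and 4.91 at 96 h, and 4.33 and 4.27 at 144 h. It differed by 2.37 at 48 h against 0 h (SE 0.10, adjusted p = 2.71e-06) and by -2.08 at 96 h against 48 h (SE 0.10, adjusted p = 1.62e-05).

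BMP2, a BMP ligand gene also named after its values were seen, had a low point at 96 h as FST did. It read 6.06 and 6.31 at 0 h, 6.20 and 6.37 at 48 h, 4.74 and 4.43 at 96 h, and 5.52 and 6.12 at 144 h. It differed by -1.70 at 96 h against 48 h (SE 0.21, adjusted p = 0.000675) and by 1.24 at 144 h against 96 h (SE 0.21, adjusted p = 0.00466). By its other feature the difference was -0.76 at 96 h against 48 h and -0.01 at 144 h against 96 h.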
